A study of Mus musculus with 20 samples.

Results

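The 7 genes described here encode subunits of the GABA-A receptor, the chloride channel through which GABA inhibits most neurons of the forebrain. They were Gabra2, Gabra3, Gabra4 and Gabra5 (alpha subunits), Gabrb1 and Gabrb2 (beta subunits) and Gabrd (the delta subunit), out of 32285 genes listed in the deposited count matrices. Their UMI counts (unique molecular identifiers, each standing for 1 captured RNA molecule) were summed per mouse within classes of nuclei that had been chosen by marker genes, none of which is a GABA-A receptor subunit. All 7 were measured in all 9 cell classes described. They were tested in 5 classes, which gave 34 pairs of a gene and a class, since Gabra3 fell below the expression filter in astrocytes.

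A GABA-A receptor is assembled from several subunits around a chloride pore. Alpha and beta subunits meet at the GABA binding site, and the alpha subunit largely sets where the receptor sits and how long the current lasts. Receptors with alpha 2 serve synapses at the soma and axon initial segment of principal cells, whereas those with alpha 5, or with alpha 4 and delta, lie mainly outside synapses and carry tonic inhibition. Inhaled anesthetics such as isoflurane strengthen the response of these receptors to GABA. Ketamine acts mainly by blocking NMDA receptors, and xylazine is an agonist of adrenergic receptors.

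Nuclei came from snap-frozen hippocampus of 20 male mice aged 4.5 to 5.5 months, with 1 snRNA-seq library per mouse. APP/PS1 mice, called fAD here, carry mutant human APP (APPSwe) and PS1 (PS1ΔE9) transgenes driven by a mouse prion protein promoter that directs them mainly to neurons of the brain, and the controls were wild-type (WT) littermates. By the labels, 9 mice were awake (6 WT-Awake, 3 fAD-Awake), 7 were under isoflurane (3 WT-GA, 4 fAD-GA) and 4 were under ketamine (2 WT-KX, 2 fAD-KX). The series' design text and the study's text divide the mice among these groups differently, so every value split by genotype holds for the labels only. GA stands for isoflurane lowered from 5% to 1.5%, and KX for 150 mg/kg ketamine with 12 mg/kg xylazine, each of 3 h and followed at once by tissue collection.

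The libraries held 4743 to 10877 nuclei and 9243992 to 25394891 UMIs each, with a median of 1235 to 3169 UMIs per nucleus, and 3251 of 157472 distinct nucleus barcodes (2.064%) occurred in more than 1 library. Of 160777 nuclei, 115679 (71.95%) were assigned to a class, and 13087 were set aside because they also held markers of another class. The markers that chose each class describe it but cannot check its name independently. Prox1 stood at 217 CPM (counts per 1e6 UMIs) in dentate gyrus (DG) granule nuclei against 34.6 in all other nuclei, and Gad2 at 319 against 12.2 in interneurons. Not every marker was so clear: in subicular or cortical excitatory nuclei Fn1 stood at 85.5 against 93.2 CPM and Ntng2 at 91.0 against 70.1. The marker list of that class summed to 4341 CPM in its own nuclei and 2127 in CA2/CA3 nuclei. The CA1 class rested on the thinnest evidence, since 6151 of its 11701 nuclei carried only 3 to 5 marker UMIs. Mice 1 to 4, which hold 1 mouse of each WT and fAD state other than KX, had 0.939% to 1.78% mitochondrial UMIs, against 0.0353% to 0.336% in the others. All 4 KX mice carry numbers between 25 and 28, next to a single awake mouse (29), so the treatment and that run of mice cannot be told apart beyond mouse 29. Prnp, whose promoter drives the transgenes, stood at 43.9 to 196 CPM in mice labelled WT and at 67.8 to 416 in mice labelled fAD. Because 4 of the 9 mice labelled fAD fell inside the WT range, genotypes are given as labelled.

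The 7 genes lie in 5 places of the mouse genome, given here on GRCm38. Gabra2 (chr5:70957597-71095849, minus strand) lies near Gabra4 (chr5:71569749-71658308, minus strand) and Gabrb1 (chr5:71658113-72149037, plus strand). Gabra4 and Gabrb1 are annotated head to head with 196 shared bases at their starts, so reads there could count for either gene if strand were ignored. Gabra5 is at chr7:57407672-57510059 (minus strand), Gabrb2 at chr11:42419757-42629028 (plus strand), Gabrd at chr4:155384980-155398112 (minus strand) and Gabra3 at chrX:72432681-72656848 (minus strand). The promoters of the 3 subunits with a call between treatments are shown as a description. A link between their sequence and those differences was not tested. Each runs 5′ to 3′ on the gene's own strand from 250 bases before to 50 bases after the start (RefSeq, GRCm38.p6), and capitals mark GC boxes (GGGCGG, on either strand).
Gabra2 promoter, chr5:71095800-71096099, minus strand: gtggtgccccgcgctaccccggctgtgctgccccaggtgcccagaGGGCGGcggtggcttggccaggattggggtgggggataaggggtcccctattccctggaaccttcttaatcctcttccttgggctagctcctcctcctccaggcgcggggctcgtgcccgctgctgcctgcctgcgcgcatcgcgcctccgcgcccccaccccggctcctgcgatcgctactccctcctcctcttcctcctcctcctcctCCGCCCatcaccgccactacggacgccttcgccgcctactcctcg
Gabra4 promoter, chr5:71658259-71658558, minus strand: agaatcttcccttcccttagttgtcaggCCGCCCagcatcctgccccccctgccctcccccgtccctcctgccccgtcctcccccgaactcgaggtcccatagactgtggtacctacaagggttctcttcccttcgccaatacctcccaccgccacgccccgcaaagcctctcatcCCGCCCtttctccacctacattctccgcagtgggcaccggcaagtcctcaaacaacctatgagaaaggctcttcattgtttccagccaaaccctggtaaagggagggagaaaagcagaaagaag
Gabra5 promoter, chr7:57510010-57510309, minus strand: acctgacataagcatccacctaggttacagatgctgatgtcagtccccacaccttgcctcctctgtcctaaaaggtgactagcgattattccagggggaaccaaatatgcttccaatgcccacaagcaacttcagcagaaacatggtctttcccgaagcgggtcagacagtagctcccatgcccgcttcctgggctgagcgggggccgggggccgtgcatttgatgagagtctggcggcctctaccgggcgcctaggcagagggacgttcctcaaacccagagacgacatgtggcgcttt

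The search covered GC boxes, TATA boxes (TATAAA), the cAMP response element (TGACGTCA) and its core (TGACG, which the full element contains) on both strands. Gabra2 held 2 GC boxes, Gabra4 held 2, and Gabra5 held none of the motifs. Among the subunits not shown, the first Gabrb2 entry held a TATA box, the core and a GC box. Each Gabra3 entry held a TATA box, and the Gabrb1 entries and later Gabrb2 entries held none of the motifs. Over 32851 promoters of 300 bases, 35.7% held a GC box, 13.6% a TATA box, 1.79% the full element and 20.8% the core. GC content was 70.0% for Gabra2, 58.7% for Gabra4 and 56.7% for Gabra5, against a median of 52.7% over all promoters. Promoter entries matched 6 of the 7 genes (all but Gabrd). A match is a description of letters, not of a bound factor.

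Every subunit differed in level between cell classes, with its highest level in principal cells, interneurons or astrocytes. Levels are given as CPM of the nuclei of that class in a mouse, scaled by TMM (a factor for the composition of each library) within each class, as mean ± SD over mice. Awake and anesthetized mice are pooled in these means and in the order of the classes. Neighbours in each order were compared within mice by permutation tests, 56 in all, of which 32 passed an adjusted p of 0.05. Levels are compared between classes for 1 gene at a time, never between genes.

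Gabra2 was high in all 3 principal cell classes of the hippocampus. It reached 536 ± 95.9 CPM in CA2/CA3, 536 ± 155 in DG granule and 530.2 ± 104 in CA1 nuclei (n = 20 mice), and these neighbours did not pass the test (adjusted p = 0.730 and 0.841, permutation). Astrocytes followed at 269.6 ± 83.7 CPM, below CA1 in 20 of 20 mice (adjusted p = 8.62e-05, permutation test, from the smallest p that the resamples can give, 2e-05). By treatment, mean Gabra2 in DG granule, CA1 and CA2/CA3 nuclei was 669.8, 585.1 and 562.5 CPM awake. Under isoflurane it was 453.4, 517.9 and 542.1 CPM, and under KX 377.4, 427.9 and 466.4 CPM. Neighbours were not tested within a treatment, so the pooled tests do not show equal levels in awake mice. Gabra4, the usual partner of delta in granule cells, peaked at 264 ± 37.0 CPM in DG granule nuclei and stood at 130.1 in CA2/CA3 nuclei, higher in DG in 20 of 20 mice (adjusted p = 8.62e-05, permutation test). Gabrd was highest in the same class, at 52.8 ± 16.7 CPM, followed by interneurons at 32.9 (higher in DG in 18 of 20 mice, adjusted p = 0.000124, permutation test). Granule nuclei ranked first for both genes.

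Gabra5 followed another order along the hippocampal circuit. It stood at 177 CPM in CA2/CA3, 148 in CA1 and 101 in DG granule nuclei. CA2/CA3 exceeded CA1 in 18 of 20 mice (adjusted p = 0.000124, permutation) and CA1 exceeded DG in 20 of 20 (adjusted p = 8.62e-05, permutation). DG granule and subicular or cortical excitatory nuclei, at 87.6 CPM, did not pass (adjusted p = 0.0786, permutation). Gabra3, the remaining alpha subunit, followed a different order. It was highest in subicular or cortical excitatory nuclei (80.7 CPM), oligodendrocyte precursors (75.0) and interneurons (69.6), with no neighbours among them passing the test, and stood at only 10.52 in CA2/CA3 and 4.23 in DG granule nuclei.

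Gabrb1 was highest in astrocytes, at 3107 ± 643 CPM, more than in DG granule nuclei (1307) in 20 of 20 mice, a mean log2 difference of 1.23 (adjusted p = 8.62e-05, permutation test). In astrocytes 88.6% of nuclei held a Gabrb1 UMI, against 5.35% of oligodendrocytes, at median depths of 953 and 757 UMIs. The share was higher in CA2/CA3 (94.1%) and CA1 nuclei (91.3%), whose median depths were 3620 and 3195 UMIs. The astrocyte peak is thus one of Gabrb1's share of the UMIs. Gabrb2 showed the opposite preference, with 428 CPM in interneurons, 348 in DG granule nuclei and 16.7 in astrocytes, where the share of nuclei with a UMI (1.55%) was near that of oligodendrocytes (1.42%), a class read here as background.

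The same check separated the astrocyte values that could be read from those that could not. Gabra2 was detected in 22.9% of astrocyte nuclei against 3.18% of oligodendrocytes and 3.53% of microglia, and Gabra4 in 7.80% against 1.47% and 1.78%. Gabra5 (1.84% against 1.96% in oligodendrocytes), Gabrd (0.504% against 0.631%) and Gabra3 (0.344% against 0.309%) did not rise above that background, so their astrocyte levels are not read as expression. Gabrb1, Gabra2 and Gabra4 were thus the subunits of this list with astrocyte levels above the background classes.

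**Figure D1:**
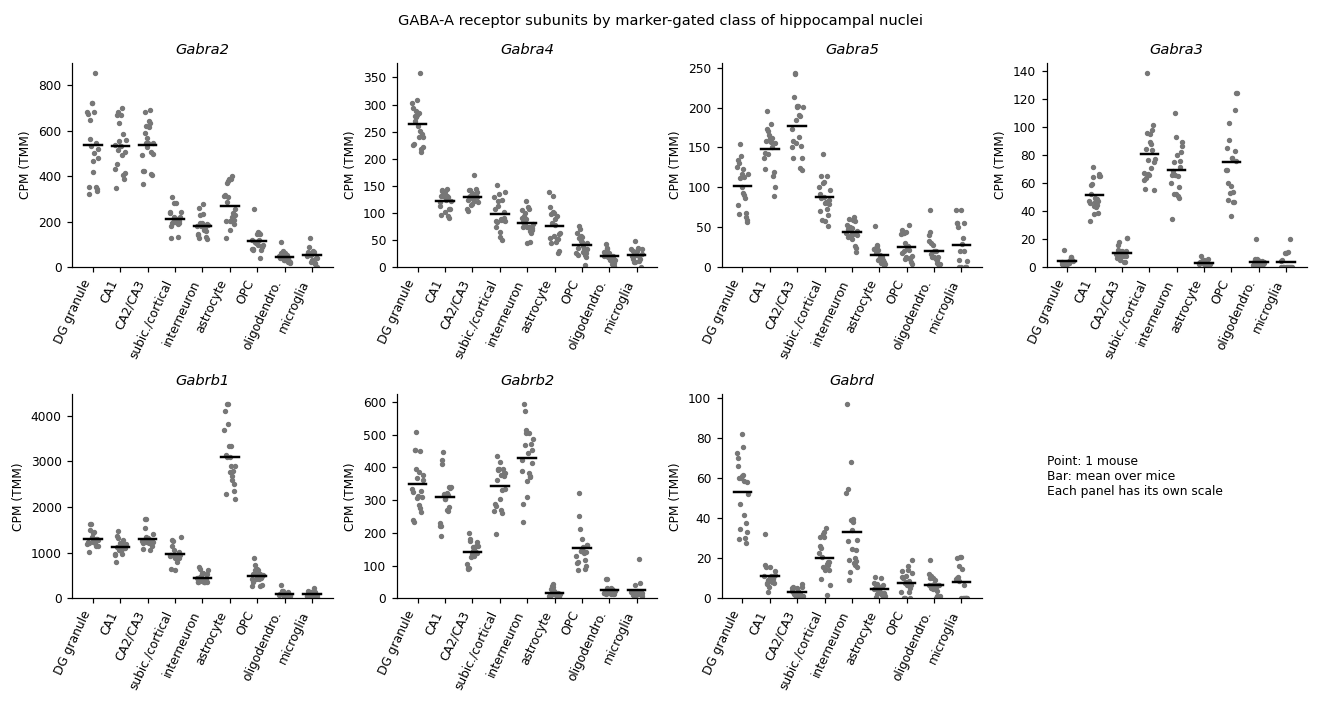
Levels of the 7 subunit genes in 9 marker-gated classes of hippocampal nuclei. Each point is 1 mouse, the vertical axis is CPM after TMM scaling from 0, and each panel has its own scale. Gabrb1 peaks in astrocytes at 3107 CPM, Gabra4 and Gabrd in DG granule nuclei, and Gabrb2 in interneurons.

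Interneurons were not uniform. They were split into nuclei carrying markers of the Lhx6 lineage (which includes Sst and Pvalb cells) and of the Adarb2 lineage (which includes Vip and Cck cells), compared within 18 mice. Gabra2 was lower in the Lhx6 type in 18 of 18 mice, at 129.6 against 278 CPM, a mean log2 difference of -1.11. Gabrb1 was also lower there, at 349 against 636 CPM (-0.88). Gabrb2 (464.5 against 313, 0.58) and Gabrd (38.2 against 10.9, 2.17) were higher in the Lhx6 type in 17 of 18 mice each. All 4 differences had an adjusted p of 7e-05 (permutation test). Gabra3 was higher in the Lhx6 type in 16 of 18 mice, at 85.9 against 59.97 CPM (adjusted p = 0.000196, permutation). Gabra4 (77.9 against 77.0) and Gabra5 (41.4 against 38.6) had adjusted p of 0.62 and 0.61 (permutation).

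As a description over the 9 classes and 11210 genes, with no test, the genes most like each subunit in level were named by Pearson's r of mean log2(CPM + 1). The 9 points share libraries and depth. They were Gm47523 (0.98) and Cacng8 (0.97) for Gabra2, Gm47523 (0.98) and Cap2 (0.97) for Gabra4, and Cnksr2 (0.98) and Camkv (0.98) for Gabra5. Bean1 (0.97) and Cntn4 (0.97) came closest to Gabra3, Wwc1 (0.97) and Hacd3 (0.96) to Gabrb1, Serp2 (0.99) and Ttc3 (0.99) to Gabrb2, and Cemip (0.99) and C1qtnf4 (0.97) to Gabrd.

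The comparison of 7 isoflurane with 9 awake mice asked whether transcripts of a receptor that isoflurane acts on differ after 3 h of it. Gabra2 and Gabra5 were lower in DG granule nuclei and Gabra2 and Gabra4 were lower in astrocytes, which made 4 of the 34 pairs with an adjusted p under 0.05 (edgeR quasi-likelihood test, adjusted over all genes of a class), all of them in the direction of lower levels. A further 6 pairs had an unadjusted p under 0.05 only. The subunits were chosen with earlier results of these data known, so the counts are not an independent test of the list. Over all genes tested, 2.45% passed in DG granule nuclei, 6.03% in CA1, 2.14% in CA2/CA3, 1.93% in interneurons and 6.83% in astrocytes. Beside these shares, 2 of 7 subunits were called in DG granule nuclei and 2 of 6 in astrocytes, with 0 of 7 in each of CA1, CA2/CA3 and interneurons. Of the pairs in these last 3 classes, 4 had an unadjusted p under 0.05. This held for 15.5% of all genes in DG granule nuclei, 19.2% in CA1, 14.1% in CA2/CA3, 13% in interneurons and 19.7% in astrocytes.

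In DG granule nuclei, Gabra5 spanned 112.6 to 154 CPM in awake mice, with a median of 125, and 66.2 to 112.3 CPM under isoflurane, with a median of 90.1. All 7 isoflurane mice lay below all 9 awake mice, by a small margin at the nearest pair, a separation that 0.336% of genes showed in this direction. Gabra5 fell by 0.53 on the log2 scale (SE 0.10, adjusted p = 0.0147). Gabra2 spanned 520.3 to 854 CPM in awake mice, with a median of 679.6, and 322 to 565 CPM under isoflurane, with a median of 468. Of the isoflurane mice, 5 of 7 lay below every awake mouse, so the groups overlapped slightly. Gabra2 fell by 0.57 on the log2 scale (SE 0.13, adjusted p = 0.0285). That call depended on single mice: without mouse 2, 3, 10 or 16 the adjusted p exceeded 0.05 and reached 0.0865.

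The other granule cell subunits did not pass. Gabra4 spanned 239.6 to 359 CPM in awake mice, with a median of 287, and 226 to 281 under isoflurane, with a median of 251.4, so the groups overlapped. Its log2 difference was -0.20 (95% interval -0.37 to -0.03, adjusted p = 0.218). Gabrb2, with means of 399 and 301 CPM, had a log2 difference of -0.41 (-0.70 to -0.13, adjusted p = 0.122). For Gabrb1 the interval of the difference was -0.25 to 0.18, and for Gabrd, the partner of Gabra4, it was -0.44 to 0.48. Gabra3, near its floor in this class, had an interval of -1.21 to 0.10. The median over the 7 genes was -0.41, with 6 of 7 below 0, beside a median of 0.01 over all genes tested.

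Marker sums and depth of the granule nuclei were compared by treatment too. The summed level of the 9 DG markers was 4520 to 5806 CPM (median 4979) in awake and 3627 to 5281 CPM (median 4506) in isoflurane mice. The 8 CA1 markers summed to 179.9 to 357 CPM and 109 to 185 CPM in these groups. Median depth was 1213 to 3897 UMIs per nucleus in awake and 1541 to 3209 in isoflurane mice, a range inside the awake one. The part of the markers in the subunit differences was not tested. Without mice 1 to 4 the estimates for Gabra2 (-0.44, adjusted p = 0.216) and Gabra5 (-0.42, adjusted p = 0.119) kept their direction and lost the call.

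**Figure D2:**
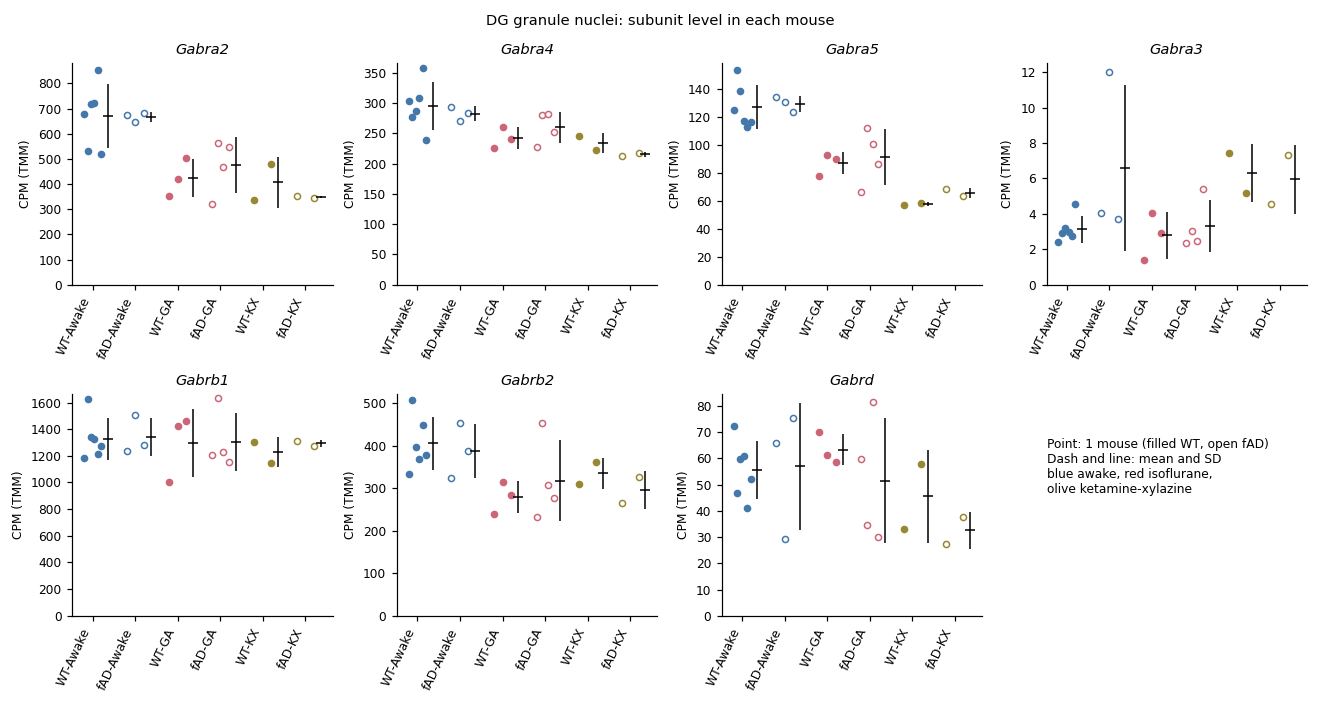
Levels of the subunit genes in DG granule nuclei by group of the labels. Each point is 1 mouse (filled for WT, open for fAD), colours mark treatment, the black mark and bar give mean and SD, and the vertical axes are CPM from 0. Gabra5 is 112.6 CPM or more in every awake mouse and 112.3 or less in every isoflurane and KX mouse.

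In astrocytes, Gabra2 spanned 254 to 399.8 CPM in awake mice, with a median of 369.9, and 128 to 287 CPM under isoflurane, with a median of 204. Only the highest isoflurane mouse (mouse 11) exceeded the lowest awake mouse (mouse 29). Gabra2 fell by 0.79 on the log2 scale (SE 0.15, adjusted p = 0.00254), and this call held without any single mouse and under all 10 alternative settings. Gabra4 spanned 63.5 to 139 CPM in awake mice, with a median of 99.8, and 43.9 to 81.1 CPM under isoflurane, with a median of 54.6. These groups overlapped through mouse 29, the awake mouse with the lowest value. Gabra4 fell by 0.78 on the log2 scale (SE 0.20, adjusted p = 0.0197), a call that was lost without mouse 18 (adjusted p = 0.0662) and without mice 1 to 4 (-0.60, adjusted p = 0.166).

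Gabrb1, the subunit with its highest level in astrocytes, was 3475 ± 539 CPM in awake and 3003 ± 626 CPM in isoflurane mice. Its log2 difference of -0.22 had an interval of -0.49 to 0.05 (adjusted p = 0.363). The median over the 6 genes tested was -0.31, with 4 of 6 below 0, beside 0.01 over all genes, and 3 of those 6 genes were at background in this class. In the astrocyte nuclei the 9 DG granule markers summed to 1140 to 1669 CPM (median 1273) in awake and 862.5 to 1412 CPM (median 1099) in isoflurane mice. These ranges overlapped, and none of the 9 was at 0. Whether those counts came from other cells or from the astrocytes themselves was not tested. The 9 astrocyte markers summed to 13440 to 16600 and 12420 to 15000 CPM in the same groups. In oligodendrocytes, read as background, Gabra2 had medians of 54.4 and 41.3 and Gabra4 of 20.6 and 22.1 CPM in awake and isoflurane mice. The part of these in the astrocyte differences of Gabra2 and Gabra4 was not tested.

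**Figure D3:**
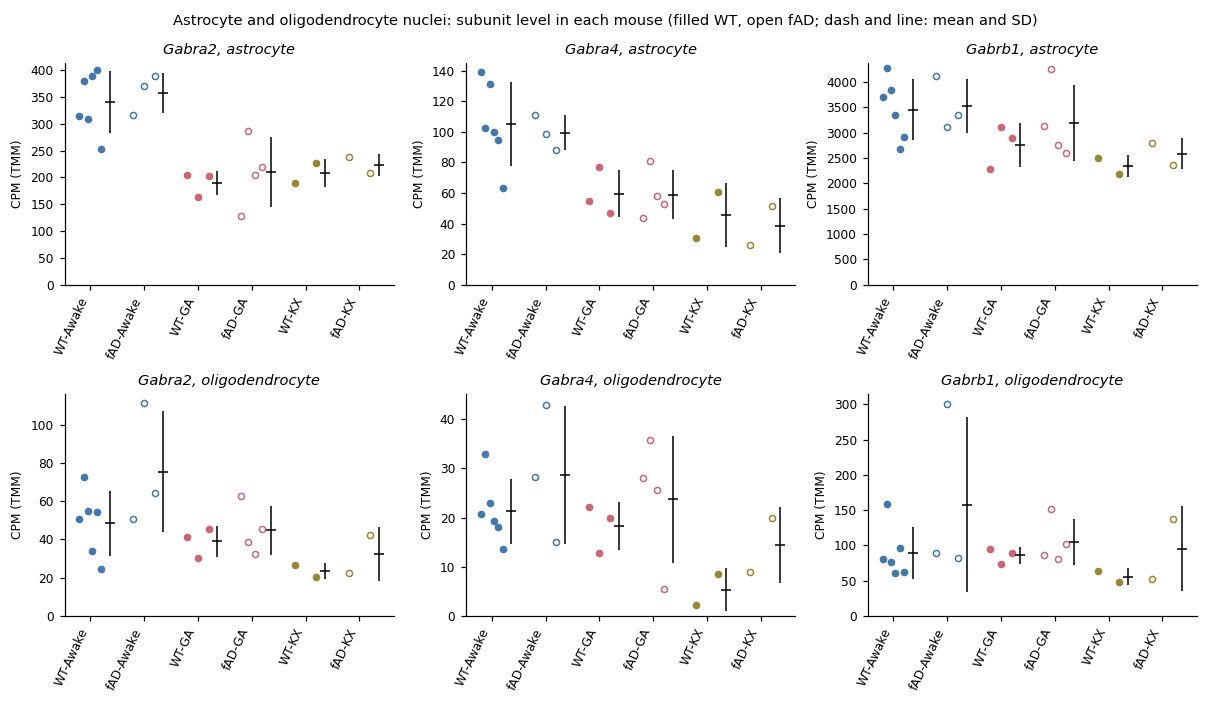
Levels of Gabra2, Gabra4 and Gabrb1 in astrocyte (upper row) and oligodendrocyte nuclei (lower row) by group of the labels. Each point is 1 mouse (filled for WT, open for fAD), the black mark and bar give mean and SD, and the vertical axes are CPM from 0. In astrocytes Gabra2 is 254 CPM or more in every awake mouse and 287 or less in every anesthetized mouse.

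Interneurons came close to the threshold without passing it. Gabra4 spanned 80.5 to 123 CPM in awake mice, with a median of 99.3, and 45.5 to 83.7 CPM under isoflurane, with a median of 73.9. The ranges overlapped slightly. The log2 difference of Gabra4 was -0.48 (-0.76 to -0.21, adjusted p = 0.0596). Gabrb2, which marks the Lhx6 type more than the Adarb2 type, had means of 492.6 and 344.7 CPM and a log2 difference of -0.51 (-0.79 to -0.23, adjusted p = 0.0559). Both passed in 5 of 10 alternative settings, among them the fit with runs of mouse numbers as a term (adjusted p = 0.0178 for Gabra4 and 0.00419 for Gabrb2). Gabrb1 had means of 518 and 384 CPM and a log2 difference of -0.43 (-0.73 to -0.12, adjusted p = 0.155). The median of the 7 genes was -0.43, with 5 of 7 below 0, beside 0.02 over all genes. The 6 markers of the Lhx6 type summed to 2372 to 2863 CPM in awake and 1832 to 2305 CPM in isoflurane mice, with no overlap. The 8 interneuron markers summed to 6362 to 11050 and 4822 to 8246 CPM, and the part of this in the subunit differences was not tested.

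Pyramidal cells of CA1 and CA2/CA3 gave small differences. In CA1, Gabra5 had means of 155 CPM awake and 163 under isoflurane, with an interval of -0.15 to 0.27 for the log2 difference, and Gabra2 had an interval of -0.46 to 0.06. In CA2/CA3 the interval was -0.27 to 0.26 for Gabra5 and -0.33 to 0.23 for Gabra2. Gabrd in CA1, at 9.05 against 14.3 CPM, had the largest estimate of these classes (0.63, interval 0.01 to 1.24, adjusted p = 0.251). Mouse 3 alone stood at 31.9 CPM, and the other 6 isoflurane mice at 7.48 to 15.6 had a mean of 11.4. Medians over the 7 genes were -0.07 in CA1 and -0.04 in CA2/CA3, beside 0.01 over all genes in each. Subicular or cortical excitatory nuclei were not tested by treatment. Their Gabra4 spanned 89.5 to 152 CPM in awake mice (mean 123.7) and 50.9 to 87.6 under isoflurane (mean 71.7). Awake and isoflurane means there were 245.3 and 187 for Gabra2, 101.4 and 79.85 for Gabra5, and 20.2 and 21.9 for Gabrd. Shares of all genes were not computed for that class.

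Whether a gene's isoflurane difference itself differed between classes was tested within mice, by exact permutation of treatment over 7 and 9 mice, in 66 comparisons added after the values were seen. Gabra5 differed between DG granule and both pyramidal classes, by -0.58 from CA1 and -0.53 from CA2/CA3 on the log2 scale (adjusted p = 0.00385 each, exact permutation). Gabra2 differed between DG granule and CA2/CA3 nuclei by -0.53 (adjusted p = 0.00462, exact permutation) and between CA2/CA3 nuclei and astrocytes by 0.76 (adjusted p = 0.00385, exact permutation). In all, 22 of 66 passed, with a smallest unadjusted p of 0.000175, the smallest this design can give. The comparisons covered the subunits only, so no share over all genes stands beside this count. Without mice 1 to 4, 14 passed, 13 of them shared with the first set, and all 22 kept their sign.

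The mouse numbers were divided here into sets, of which mice 1 to 4, 10 to 13, 14 to 17 and 18 to 20 each held both awake and isoflurane mice. Numbers 10 to 20 are unbroken in the labels, so the divisions within them are a choice. The study's methods describe tissue processed in batches that held every awake and isoflurane group, as mice 1 to 4 and 14 to 17 do, while the labels assign no mouse to a batch. All isoflurane mice lay below all awake mice in 4 of 4 sets for Gabra5 in DG granule nuclei, for Gabra2 and Gabra4 in astrocytes, and for Gabra4 and Gabrb2 in interneurons. Among all genes tested, 3.08% were lower in this way in DG granule nuclei, 3.05% in astrocytes and 2.65% in interneurons. For Gabra2, Gabra4 and Gabrb2 in DG granule nuclei it held in 3 of 4 sets, as it did in at least 3 sets for 11.3% of genes there. In mice 1 to 4, Gabra5 in DG granule nuclei was 125 and 135 CPM awake and 78.1 and 66.2 CPM under isoflurane.

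**Figure D4:**
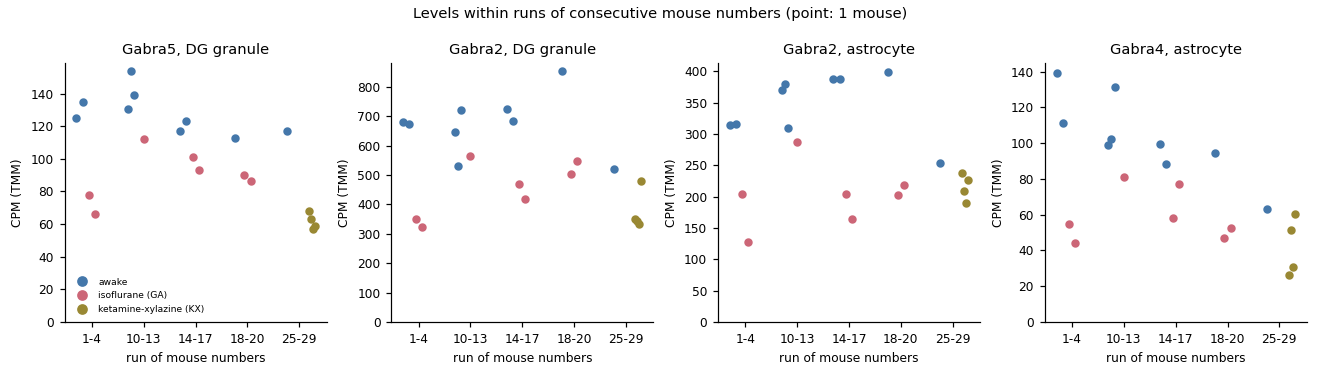
Levels of subunit genes within the chosen runs of consecutive mouse numbers, 1 point per mouse, coloured by treatment, with CPM from 0 on the vertical axes. Gabra5 in DG granule nuclei is lower under isoflurane than awake within 4 of 4 runs, and mouse 29 is the only awake mouse in the run of the KX mice.

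Within each genotype the estimates had the same sign for the called genes, and the tests were weaker. In DG granule nuclei, Gabra5 was 78.1, 90.1 and 92.9 CPM in the 3 WT-GA mice, against 112.6 to 154 (median 121) in WT-Awake. It was 66.2, 86.5, 101 and 112.3 CPM in the 4 fAD-GA mice, against 123, 130.5 and 135 in fAD-Awake. The groups were separate within each genotype, as they were in this direction for 3.08% of genes in WT and 3.11% in fAD. The log2 differences were -0.55 in WT (adjusted p = 0.170) and -0.50 in fAD (adjusted p = 0.264).

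Gabra2 in astrocytes was 164, 203 and 204 CPM in WT-GA, against 254 to 399.8 (median 346.5) in WT-Awake. It was 128, 204, 219 and 287 CPM in fAD-GA, against 316, 369.9 and 389 in fAD-Awake. These groups were also separate within each genotype, as were those of 3.84% of genes in WT and 4.61% in fAD. Its log2 differences were -0.83 in WT (adjusted p = 0.0508) and -0.76 in fAD (adjusted p = 0.0954).

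Of the 34 pairs, edgeR called 0 in WT (10 with an unadjusted p under 0.05, 5 called by DESeq2) and 0 in fAD (6 with an unadjusted p under 0.05, 0 called by DESeq2). An unadjusted p under 0.05 held in WT for 9.71% (interneurons) to 14.3% (CA1) of all genes. In fAD it held for 7.45% (CA2/CA3) to 12.9% (astrocytes). Over all genes in WT, edgeR called 0.0194% in DG granule nuclei, 0.778% in CA1, 0.0307% in CA2/CA3, 0.194% in interneurons and 1.40% in astrocytes. DESeq2 called more in each class, 0.834%, 1.78%, 0.491%, 0.988% and 2.61% in the same order. In fAD the edgeR shares were 0% in DG granule nuclei, 0.837% in CA1, 0.0307% in CA2/CA3, 0.0883% in interneurons and 1.09% in astrocytes, and those of DESeq2 were 0.62%, 1.83%, 0.238%, 0.362% and 2.15%.

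The interaction of isoflurane with genotype asked whether these differences depended on the APP/PS1 label. It was called for 0 of 34 pairs by edgeR and for 0 by DESeq2, with 0 at an unadjusted p under 0.05, and for 0% of all genes in each of the 5 classes. An unadjusted p under 0.05 held for 2.2% (CA2/CA3) to 3.32% (CA1) of all genes. The intervals remained wide. They ran from -0.38 to 0.49 for Gabra5 and from -0.37 to 0.74 for Gabra2 in DG granule nuclei, and from -0.55 to 0.68 for Gabra2 and from -0.76 to 0.87 for Gabra4 in astrocytes.

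Genotype itself gave no call. Mice labelled fAD and WT, compared over awake and isoflurane mice, differed in 0 of 34 pairs by edgeR and 0 by DESeq2, with 1 pair (Gabra3 in DG granule nuclei, 0.66) having an unadjusted p under 0.05. Over all genes, edgeR called 0% in each of the 5 classes, and DESeq2 called 1 gene, in astrocytes. An unadjusted p under 0.05 held for 0.911% of genes in DG granule nuclei. In DG granule nuclei the interval was -0.16 to 0.27 for Gabra5 and -0.19 to 0.37 for Gabra2, and in astrocytes it was -0.22 to 0.39 for Gabra2 and -0.48 to 0.34 for Gabra4. Since 4 of 9 mice labelled fAD had Prnp within the WT range, these values describe the labels.

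KX against awake addressed whether an anesthetic with another main target went with the same subunits. It rested on 4 KX mice, 2 per genotype, and shares its 9 awake mice with the isoflurane comparison. The choice of subunits with earlier results of these data known limits the counts below too. Lower levels were called in 6 of 34 pairs: Gabra2, Gabra4 and Gabra5 in DG granule nuclei, Gabra5 in CA1, and Gabra2 and Gabra4 in astrocytes, and 15 pairs had an unadjusted p under 0.05. Over all genes 10.8% passed in DG granule nuclei, 8.14% in CA1, 4.52% in CA2/CA3, 2.07% in interneurons and 7.05% in astrocytes. The subunits called were 3 of 7 in DG granule nuclei, 1 of 7 in CA1, 2 of 6 in astrocytes and 0 in CA2/CA3 and interneurons by edgeR. Of the pairs in these last 2 classes, 5 had an unadjusted p under 0.05. This held for 28.8% of all genes in DG granule nuclei, 24.8% in CA1, 23.2% in CA2/CA3, 20.5% in interneurons and 24.9% in astrocytes.

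In DG granule nuclei, Gabra5 was 56.8, 58.6, 63.3 and 68.2 CPM in the 4 KX mice, below all awake mice (112.6 or more). It fell by 1.01 on the log2 scale (SE 0.13, adjusted p = 0.000504), and the call held without any single mouse. Gabra2 was 335, 344, 351 and 479.5 CPM under KX, also below all awake mice (520.3 or more). It fell by 0.78 (SE 0.16, adjusted p = 0.00694), and without mouse 27 the adjusted p was 0.0788. In this class 4.01% of genes were lower under KX with no overlap. Gabra4 was 213, 218, 222 and 246 CPM and overlapped the awake range. It fell by 0.31 (SE 0.10, adjusted p = 0.0469), a call kept in only 7 of 20 fits that left out 1 mouse and lost without the gene filter, with mixed nuclei kept, with only the groups compared and without mice 1 to 4 (adjusted p = 0.0572 to 0.0841). The 9 DG markers summed to 4110 to 4373 CPM under KX, below all awake mice (4520 or more), and their part in these differences was not tested.

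Gabra5 in CA1 was 89.6, 100.4, 115 and 119 CPM under KX, against 137 or more awake, with no overlap. It fell by 0.51 (SE 0.13, adjusted p = 0.0197), and the call was lost without mouse 26, 27 or 28 (adjusted p up to 0.0855) and with nuclei of at least 6 marker UMIs (adjusted p = 0.0603). Gabra4 in CA1 also lay below all awake mice and did not pass (-0.32, adjusted p = 0.0744), where 3.88% of genes were lower with no overlap. In interneurons Gabra4 lay below all awake mice as well (-0.63, adjusted p = 0.0548), where that share was 1.72%.

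Astrocyte Gabra4 was 26.0, 30.7, 51.3 and 60.5 CPM under KX, below all awake mice. It fell by 1.25 (SE 0.25, adjusted p = 0.00590), and without mouse 27 the adjusted p was 0.0628. Astrocyte Gabra2 was 191, 209, 227 and 237 CPM, below all awake mice, in a class where 2.32% of genes were lower with no overlap. It fell by 0.68 (SE 0.18, adjusted p = 0.0275), a call kept in 15 of 20 fits that left out 1 mouse, with an adjusted p of up to 0.147 in the fits without mouse 17, 25, 26, 27 or 28. Gabrb1 in astrocytes had a log2 difference of -0.50 (-0.82 to -0.17, adjusted p = 0.0566). The background classes were lower as well: in oligodendrocytes mean Gabra4 was 23.8 CPM awake and 9.87 under KX, and mean Gabra2 was 57.4 and 27.9, while mean Gabra2 in microglia was 66.2 (7 mice) and 19.2 (4 mice). Their part in the astrocyte differences was not tested.

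Within the run of the KX mice the only awake animal, mouse 29, had 117 CPM of Gabra5 in DG granule nuclei, against 68.2 or less in the KX mice. For Gabra4 in the same class it had 239.6 CPM, inside the KX range of 213 to 246. Its Gabra2 and Gabra4 in astrocytes, at 254 and 63.5 CPM, were the lowest of the awake mice and only just above the KX mice. In oligodendrocytes mouse 29 had 24.4 CPM of Gabra2 and 13.5 of Gabra4, inside the KX ranges of 20.3 to 42.4 and 2.2 to 19.9. With the run as a term in the fit 0 of the 34 pairs were called, as were 0.0347% of all gene and class pairs, and 29 estimates were below 0 and 5 above. The lowest adjusted p of the 34 was 0.342 (edgeR). These signs share mouse 29 and are not separate results, and the share of all genes below 0 is not given. For the pairs called without that term, estimates ran from -0.03 for Gabra4 in DG granule nuclei (adjusted p = 0.990) to -0.93 for Gabra5 there (adjusted p = 0.505).

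Between the anesthetics, Gabra5 was lower under KX than under isoflurane in DG granule nuclei and CA1, the 2 pairs called of 34. In DG granule nuclei, where 3.69% of all genes passed, the difference was -0.48 (SE 0.13, adjusted p = 0.0471), a call kept in 8 of 20 fits that left out 1 mouse. In CA1, where 5.08% passed, Gabra5 was 123 to 196 CPM (median 162) under isoflurane, above all 4 KX mice. The difference was -0.56 (SE 0.13, adjusted p = 0.0196), in a class where 4.17% of genes were lower under KX with no overlap, and it was lost without any 1 of the 4 KX mice. The other backgrounds were 2.46% in CA2/CA3, 0.371% in interneurons and 8.67% in astrocytes, with 0 members called by edgeR in these classes and 4 at an unadjusted p under 0.05. At that unadjusted p the shares of all genes were 20.2%, 17.8% and 27.1% in the same order. Gabra5 in astrocytes, a gene at background there, was also lower in all KX than in all isoflurane mice (3.62% of genes) and did not pass (adjusted p = 0.0596). No KX mouse shares a run of mouse numbers with an isoflurane mouse. With runs as a term the DG granule and CA1 calls were lost (edgeR adjusted p = 0.884 and 0.387). They were also lost with only the groups compared (0.0946 and 0.0574) and with at least 6 marker UMIs per nucleus (0.0546 and 0.0600).

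**Figure D5:**
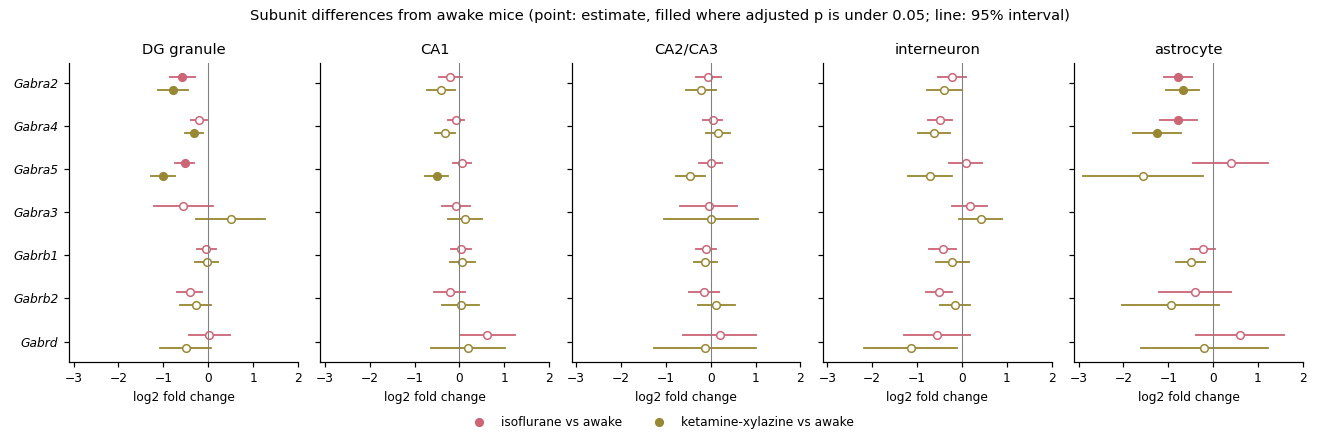
Log2 differences of the subunit genes from awake mice in 5 classes, for isoflurane and KX. Points are edgeR estimates, filled where the adjusted p is under 0.05, lines are 95% intervals, and the vertical line marks 0. Filled points lie left of 0, at -0.53 and -1.01 for Gabra5 in DG granule nuclei.

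The rest of the inhibitory synapse was read from lists in the same fits. Under isoflurane, 7 of 182 pairs of a listed gene and a class outside the receptor subunits were called (3.85%), close to the 3.88% of all gene and class pairs. Kctd16, an auxiliary subunit of the GABA-B receptor, was lower in DG granule nuclei (-0.78, adjusted p = 0.00362) and in interneurons (-0.78, adjusted p = 0.00508), the only 1 of 5 GABA-B genes called in each. Mdga1, an adhesion protein that restrains neuroligins, was lower in CA1 (-0.55) and in CA2/CA3 (-0.61), and Iqsec3, which binds the inhibitory scaffold protein gephyrin, was lower in CA1 (-0.50), which made 2 of 12 and 1 of 12 scaffold and adhesion genes tested. Among 13 genes of receptor assembly and trafficking, Trak1 was lower in CA1 (-0.48) and Plcl1, a protein that binds GABA-A receptors, was higher in astrocytes (0.76, adjusted p = 0.00389). Neither of the chloride cotransporter genes was called in any class, nor any of the 4 or 5 genes tested for GABA uptake and breakdown. Of 12 other GABA-A subunit genes on the list, 1 of 6 tested was higher in DG granule nuclei and 1 of 5 was lower in interneurons, with 0 in the remaining classes.

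Under KX, Gphn (gephyrin) was higher in CA1 (0.39) and astrocytes (0.54), Kctd8, another auxiliary GABA-B subunit, was lower in CA1 (-1.14), Kctd16 was higher in CA2/CA3 (0.43) and Gabbr1, a principal GABA-B subunit, was lower in astrocytes (-0.58). These were 5 of 182 pairs (2.75%), against 6.81% of all gene and class pairs. Between KX and isoflurane, 10 of 182 pairs were called (5.49%), against 4.13% of all gene and class pairs. None of these lists had a call between genotypes.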

How the data were processed

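snRNA-seq libraries of 20 mouse hippocampi (10x 3′ chemistry) were analysed from the UMI counts that the authors deposited per gene and nucleus, without normalization. The submitters' processing notes name Cell Ranger 5.0.0 and mm10. The study's methods add that introns were counted and that CellBender and DoubletFinder were used, while the file headers name Cell Ranger only. No annotation of nuclei was used, so classes were rebuilt: a nucleus needed a posterior of 0.95 for 1 class and 3 UMIs from 2 of its markers, and nuclei with markers of another class were removed, which stood in for a doublet caller. All nuclei had at least 200 genes.

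Counts were summed per mouse and class (50 nuclei or more) and tested by the quasi-likelihood method of edgeR 4.0.16 in R 4.3.3, with TMM factors, the filterByExpr filter, 6 groups in 1 fit, Benjamini-Hochberg adjustment over all genes of a class and a threshold of 0.05. Between 11331 and 15472 genes were tested per class. Intervals are 95%. Single values were compared by permutation over mice (100000 resamples, or exact, on log2(CPM + 1), two-sided). The test code was checked on simulated data. P-values measure the spread between mice. The genes named are the 7 subunits, called genes of fixed lists, the 2 most alike genes per subunit (of those with 20 CPM in a class) and Prnp. Subunits and lists were chosen with earlier results of these data known. The alternatives were DESeq2 1.42.0, no gene filter, 6 marker UMIs, mixed nuclei kept, 500 genes per nucleus, other covariates or mice, and each mouse left out.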

Additional observations from a re-analysis of the deposited data

Results flagged for a closer look

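In 70 sets of a gene, a class and a group of 4 or more mice, 7 held a mouse far from the others by Dixon's test, which chance does in about 1 of 20. Mouse 11 (fAD-GA) accounted for 3 of them, with 1631 CPM of Gabrb1 in DG granule nuclei (next highest 1226), 196.2 CPM of Gabra5 in CA1 (next 162.1) and 36.5 CPM of Gabrb2 in astrocytes (next 13.94). Among WT-Awake mice, mouse 12 had 1624 CPM of Gabrb1 in DG granule nuclei (next 1340) and 230.5 CPM of Gabra2 in interneurons (next 191.3). Mouse 29 had 4.538 CPM of Gabra3 in DG granule nuclei (next 3.182), and mouse 1 had 4.921 CPM of Gabrd in CA2/CA3 (next 2.384).

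The isoflurane difference of a gene differed between classes in 22 of 66 comparisons by exact permutation over 7 isoflurane and 9 awake mice (adjusted p under 0.05, comparisons added after the values were seen). Genes other than the subunits were not compared in this way, so the count has no background. Values below are the log2 difference, isoflurane minus awake, in the first class less that in the second. For Gabra2 they were -0.3878 for DG granule less CA1, -0.5293 for DG granule less CA2/CA3, 0.6169 for CA1 less astrocyte, 0.7584 for CA2/CA3 less astrocyte and 0.611 for interneuron less astrocyte nuclei. For Gabra4 they were -0.2547 for DG granule less CA2/CA3, 0.5892 for DG granule less astrocyte, 0.4316 for CA1 less interneuron, 0.7321 for CA1 less astrocyte, 0.5434 for CA2/CA3 less interneuron and 0.8439 for CA2/CA3 less astrocyte nuclei.

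Gabra5 in DG granule nuclei stood apart from the other neuron classes tested, at -0.5833 less CA1, -0.5296 less CA2/CA3 and -0.5883 less interneuron nuclei. Subicular or cortical excitatory nuclei, with mean Gabra5 of 101.4 CPM awake and 79.85 under isoflurane, were not compared. Gabrb1 in interneurons stood apart from the 3 principal cell classes, with 0.3586 for DG granule, 0.4559 for CA1 and 0.3155 for CA2/CA3 less interneuron nuclei. Gabrb2 gave -0.2186 for DG granule less CA1, -0.3025 for DG granule less CA2/CA3, 0.3263 for CA1 less interneuron and 0.4102 for CA2/CA3 less interneuron nuclei, and Gabrd gave 0.9565 for CA1 less interneuron nuclei. Without mice 1 to 4, 13 of the 22 still passed. The 9 that did not were Gabra2 for DG granule less CA1, Gabra4 for DG granule less CA2/CA3 and for each of DG granule, CA1 and CA2/CA3 less astrocyte, Gabra5 for DG granule less interneuron, Gabrb2 for DG granule less CA2/CA3 and CA1 less interneuron, and Gabrd. In the interneuron class the markers of the Lhx6 type were lower under isoflurane with no overlap, and their part in these differences was not tested.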

How the results depend on the processing

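No call reversed in direction under any setting that was run. Counts below are of 34 pairs, and no cause of a change was tested. Under isoflurane 4 pairs were called, 7 with mice 1 to 4 as a term, 7 with runs of mouse numbers as a term, 1 without mice 1 to 4 (Gabra2 in astrocytes), and 3 to 6 when 1 mouse was left out. The share over all genes moved likewise, from 3.88% to 6.15%, 6.72% and 1.6%. In WT alone 0 were called, 5 by DESeq2, 1 without the gene filter, 1 with mice 1 to 4 as a term, 2 with runs as a term, 1 without mice 1 to 4, and 0 to 1 with 1 mouse left out. In fAD alone 0 were called, 1 with mice 1 to 4 as a term, 1 with runs as a term, and 0 to 1 with 1 mouse left out. Over all genes the main fit called 0.474% in WT and 0.403% in fAD, and DESeq2 called 1.33% and 1.04%. Shares within a genotype are not given here for the other settings, so those counts have no background beside them. For KX against awake 6 were called, 0 with runs as a term (6.81% and 0.0347% of all genes), and 1 to 7 with 1 mouse left out (3 without mouse 26, 1 without mouse 27 and 3 without mouse 28). Against isoflurane 2 were called, and 0 under each of the stricter gate, runs as a term and only the groups compared (over all genes 4.13%, then 3.14%, 0.00302% and 2.23%), with 0 to 2 when 1 mouse was left out. The interaction and the genotype comparison gave 0 throughout. Outside the subunits 7 pairs of a listed gene and a class were called under isoflurane, 15 with mice 1 to 4 as a term, 14 with runs as a term, 4 without mice 1 to 4, and 5 to 9 with 1 mouse left out. Levels across classes moved by less than 1 SD. Single pairs named as called or near the threshold kept their side of it in 342 of 420 refits, fell short in 65 and newly passed in 13. No paired analysis was possible because the labels give every mouse a number of its own; runs of these numbers entered as a term instead. The KX comparisons rest on 2 mice per genotype, and depth limits Gabra3 and Gabrd in most classes.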
